A study of Arabidopsis thaliana with 18 samples.

Results

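The 46 genes described here encode the nuclear part of the Calvin-Benson cycle and the photorespiratory pathway of Arabidopsis thaliana: the small subunits of Rubisco with Rubisco activase (5 genes), the other enzymes of the cycle (16), the CP12 proteins (3), the photorespiratory enzymes of chloroplast and peroxisome with catalase 2 (9), the mitochondrial enzymes that turn glycine into serine (7), and the transporters and ammonium-assimilating enzymes (6). They were chosen by gene ID from what their products do. The rule used no measured value, but earlier results of these data were known when the choice was made. All 46 are among the 33039 genes of the deposited table. The study asked how shoots respond when the roots are colonized by Serendipita indica, a root endophytic fungus, at normal and at high ambient temperature. Wild-type seedlings of the Col-0 accession were raised at 22°C on MS-based medium with 1.2% sucrose under 12 h of light, and were moved at an age of 9 days to PNM plates with the fungus (Si) or without it (CK). After 7 days at 22, 25, or 28°C, counted as days post inoculation (dpi), the aboveground parts were harvested for RNA-seq. Each of the 6 groups has 3 samples, given as biological replicates in the labels, so 18 samples in all; all 6 share the wild-type genotype, the medium, and the sucrose, and the roots, which the fungus colonizes, were not in the samples.

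In the Calvin-Benson cycle, Rubisco fixes CO2 onto ribulose 1,5-bisphosphate, kinase and dehydrogenase reactions reduce the product to triose phosphate, and a set of aldolases, phosphatases, transketolases, isomerases, and an epimerase regenerates the acceptor, which phosphoribulokinase phosphorylates. When Rubisco takes O2 in place of CO2, 2-phosphoglycolate forms, and photorespiration recycles it through chloroplast, peroxisome, and mitochondrion back to 3-phosphoglycerate, releasing CO2 and ammonium on the way. In leaves, both pathways are among the most highly expressed metabolic routes, and warmth favors the oxygenation reaction of Rubisco.

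Values are in TPM, a unit of transcript abundance that gives a share of each library that already corrects for transcript length, so levels may be set side by side between genes. Differences are on the scale of log2(TPM + 1), which understates the change of genes at a few TPM. They were tested with limma for the 20044 genes that reached at least 1 TPM in at least 3 samples, a filter that all 46 passed, and a gene is said to have risen or fallen where its adjusted p was at most 0.05. It is called a differentially expressed gene (DEG) where the absolute log2 fold change also exceeded 1. Because the p-values rest on 3 samples per group and TPM holds no read depth, counting error cannot be given. In bulk tissue, fewer cells of a type and less RNA per cell cannot be told apart.

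The level at which the libraries are set against each other matters for every count below. On the deposited TPM scale, the median log2 fold change of all tested genes was 0.26, 0.26, and 0.22 for Si against CK at 22, 25, and 28°C, 0.07 and 0.22 for CK at 25 and 28°C against 22°C, and 0.08 and 0.19 for the same comparisons within Si, so a gene with an unchanged TPM lay below most other genes. Each comparison was therefore repeated after median-of-ratios scaling, which brings that median close to 0, and after quantile normalization, which gives every sample the same distribution. As for tissue, the summed TPM of 5 leaf markers of light harvesting and the photosystems ran from 0.445 ± 0.0108% of all TPM in Si at 28°C to 1.01 ± 0.00919% (mean ± SD, n = 3) in CK at 22°C and was lower in Si at each temperature, with 4, 4, and 5 of the 5 markers lower at 22, 25, and 28°C. Markers of epidermis, guard cells, myrosin cells, and phloem (7 genes) summed to between 0.168 ± 0.00479% and 0.228 ± 0.0152%, and at 22, 25, and 28°C 5, 4, and 3 of them were higher in Si and 0, 1, and 2 lower. At 28°C their sum was lower in Si (0.168 ± 0.00479%) than in CK (0.217 ± 0.00942%), with GC1, a guard cell gene, at 844 TPM in CK and 396 TPM in Si. Of all tested genes, 47.4, 47.8, and 43.5% were higher in Si and 10.7, 13.5, and 11.9% lower. Median-of-ratios scaling left 3, 2, and 1 of these 7 markers higher and 1, 2, and 2 lower, with all 5 leaf markers lower each time. Quantile normalization left 3, 4, and 2 of the 7 higher and 1, 1, and 1 lower. Of the leaf markers it left 1, 1, and 0 higher and 3, 3, and 5 lower. Of 6 root markers, 5 stayed under the filter, and their sum was at most 0.000527 ± 0.000148%, nearly all of it from the endodermal gene CASP1 in CK at 28°C. The part of such shifts in the results was not tested.

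The 4 small-subunit genes sit at the top of the set by level, and 3 of them lie side by side on chromosome 5, which bears on how well their values can be separated. Coding bases 241 to 300 of each are shown for that reason, 5′ to 3′, from the RefSeq annotation of assembly TAIR10.1, with capitals at the columns where the 4 genes differ:

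RBCS1A: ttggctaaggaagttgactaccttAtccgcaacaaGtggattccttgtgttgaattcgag
RBCS1B: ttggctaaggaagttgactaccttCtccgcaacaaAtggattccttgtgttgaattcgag
RBCS2B: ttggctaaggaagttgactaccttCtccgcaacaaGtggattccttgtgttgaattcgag
RBCS3B: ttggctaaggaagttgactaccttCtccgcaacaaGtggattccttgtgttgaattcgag

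In this window the 4 genes differed at 2 of 60 bases and the 3 genes of chromosome 5 at 1. Over the whole coding sequence, RBCS1B and RBCS2B were 97.2% identical, RBCS3B was 94.1% and 94.3% identical to them, and RBCS1A was 87.7% to 90.1% identical to the other three. The level of each single gene among RBCS1B, RBCS2B, and RBCS3B is therefore uncertain, and their sum is given as well. The same holds for the glycolate oxidases GOX1 and GOX2 (90.9% identical) and for PGLP1B, whose coding sequence equals that of its copy PGLP1A in every base.

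The 300 bases upstream of the annotated gene start are shown for 4 genes: RBCS2B (chr5:15382072-15382371, minus strand), TKL2 (chr2:18672197-18672496, plus strand), AGT1 (chr2:5541480-5541779, minus strand), and DiT1 (chr5:4062290-4062589, minus strand), in TAIR10.1 coordinates and 5′ to 3′ on the strand of the gene. As given below, TKL2 and DiT1 rose and AGT1 fell in Si under every scaling, whereas the sign of RBCS2B changed with the scaling. Capitals mark each G-box (CACGTG) and each I-box (GATAAG on either strand), elements known from promoters of light-regulated genes:

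RBCS2B: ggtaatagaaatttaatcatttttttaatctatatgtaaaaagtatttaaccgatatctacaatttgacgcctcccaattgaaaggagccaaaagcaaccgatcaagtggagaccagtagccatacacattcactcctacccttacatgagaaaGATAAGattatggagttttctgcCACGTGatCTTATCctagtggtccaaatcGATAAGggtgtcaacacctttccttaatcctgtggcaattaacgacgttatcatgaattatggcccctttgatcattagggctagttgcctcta
TKL2: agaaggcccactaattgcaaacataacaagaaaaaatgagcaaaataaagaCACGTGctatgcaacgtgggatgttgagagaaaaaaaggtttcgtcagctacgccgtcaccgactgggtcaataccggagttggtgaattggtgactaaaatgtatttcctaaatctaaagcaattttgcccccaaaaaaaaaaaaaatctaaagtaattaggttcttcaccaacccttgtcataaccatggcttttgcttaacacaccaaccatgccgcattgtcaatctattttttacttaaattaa
AGT1: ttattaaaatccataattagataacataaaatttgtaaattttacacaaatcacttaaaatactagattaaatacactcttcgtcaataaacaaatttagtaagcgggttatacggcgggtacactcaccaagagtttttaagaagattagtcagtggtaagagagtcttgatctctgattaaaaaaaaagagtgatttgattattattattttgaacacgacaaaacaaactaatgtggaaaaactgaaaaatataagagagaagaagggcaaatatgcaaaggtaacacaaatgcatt
DiT1: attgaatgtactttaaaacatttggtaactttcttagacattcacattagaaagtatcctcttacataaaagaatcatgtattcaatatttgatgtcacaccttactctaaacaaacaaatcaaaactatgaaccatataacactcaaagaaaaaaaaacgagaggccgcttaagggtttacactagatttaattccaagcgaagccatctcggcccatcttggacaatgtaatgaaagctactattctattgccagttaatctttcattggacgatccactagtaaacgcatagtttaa

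The RBCS2B window held 1 G-box and 3 I-boxes, the TKL2 window held 1 G-box, and the AGT1 and DiT1 windows held neither. A G-box was found upstream of 7 of the 46 genes (15.2%; RBCS2B, PRK, cFBP1, TKL2, GGT1, GGT2, and GLDP1), against 7.09% of 27443 windows of the same kind over the genome. For the I-box the shares were 6 of 46 (13.0%) and 14.5%. Such matches are a description of these windows and do not show a bound site.

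Set side by side by role, the transcripts of the 2 pathways did not move as a block in Si shoots. Genes of Rubisco took 4.51 ± 0.0965% of all TPM in CK and 5.51 ± 0.180% in Si at 22°C, and 4.39 ± 0.0146% and 5.35 ± 0.219% at 25°C, but 4.33 ± 0.220% and 4.23 ± 0.161% at 28°C (mean ± SD, n = 3 in each group). These sums are on the TPM scale, and the higher Rubisco level in Si depends on it. The median log2 fold change of the 5 genes at 22 and 25°C was 0.23 and 0.24 on that scale. It was -0.07 and -0.05 after median-of-ratios scaling, and 0.33 and 0.23 after quantile normalization. The photorespiratory enzymes of chloroplast and peroxisome were lower in Si at all 3 temperatures, from 1.21 ± 0.0537% in CK to 0.869 ± 0.0417% in Si at 22°C, from 1.21 ± 0.0666% to 0.791 ± 0.00917% at 25°C, and from 1.07 ± 0.0862% to 0.666 ± 0.00348% at 28°C. No Si sample overlapped a CK sample of the same temperature in that sum. All 46 genes together took 8.70 ± 0.186, 8.55 ± 0.179, and 8.22 ± 0.486% of TPM in CK at 22, 25, and 28°C, and 9.34 ± 0.275, 8.98 ± 0.273, and 7.26 ± 0.205% in Si.

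**Figure D1:**
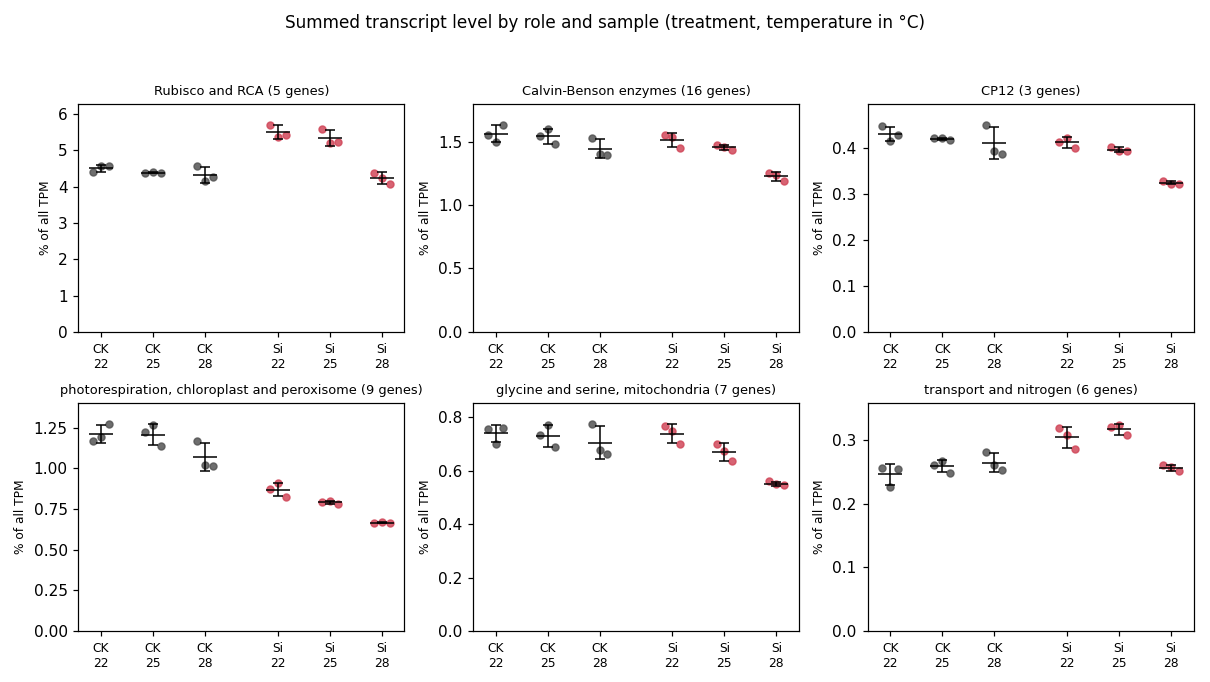
Summed TPM of the genes of each role as a percentage of all TPM (y axis) in each of the 18 samples (points), with the mean and SD of the 3 samples of a group (bars), by treatment and temperature on the x axis. The photorespiratory sum is lower in all 9 Si samples than in every CK sample of the same temperature. On this TPM scale the Rubisco sum is higher in Si at 22 and 25°C and overlaps CK at 28°C.

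Counted gene by gene at 22°C, 23 of the 46 genes rose in Si and 11 fell, while 47.4% of all tested genes rose and 10.7% fell. The median log2 fold change of the 46 was 0.13, under the 0.26 of all genes, and 1 of them was a DEG, where 9.33% of all genes were. At 25°C, 17 rose and 15 fell with a median of 0.03 and 3 DEGs, against 47.8% of all genes higher, 13.5% lower, and 12.1% DEGs. At 28°C, 6 rose and 24 fell with a median of -0.24 and 2 DEGs, against 43.5% higher, 11.9% lower, and 9.66% DEGs.

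These counts followed the scaling. After median-of-ratios scaling, 5 rose and 23 fell at 22°C (24.5% and 25.5% of all genes), 7 rose and 27 fell at 25°C (27.7% and 27.8%), and 4 rose and 35 fell at 28°C (23.1% and 24.4%). After quantile normalization, 27 rose and 5 fell at 22°C (21.7% and 25.0% of all genes), 24 rose and 4 fell at 25°C (26.9% and 26.6%), and 11 rose and 14 fell at 28°C (22.1% and 26.3%), so the 2 scalings set the 46 genes on opposite sides of the whole at 22 and 25°C. With the call required under all 3 scalings, 5 rose and 5 fell at 22°C, 7 rose and 4 fell at 25°C, and 4 rose and 13 fell at 28°C, while 29, 23, and 19 genes changed sign with the scaling. Joint counts, here and below, were made for the 46 genes alone. No share of all genes can be set beside them, so they do not show whether the set differs from the whole. Call and direction held in all 3 scalings and at all 3 temperatures for 7 genes: AGT1, HPR1, GLYK, and CAT2 fell, and TKL2, SHM2, and DiT1 rose. These 7 are described first within their roles.

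**Figure D2:**
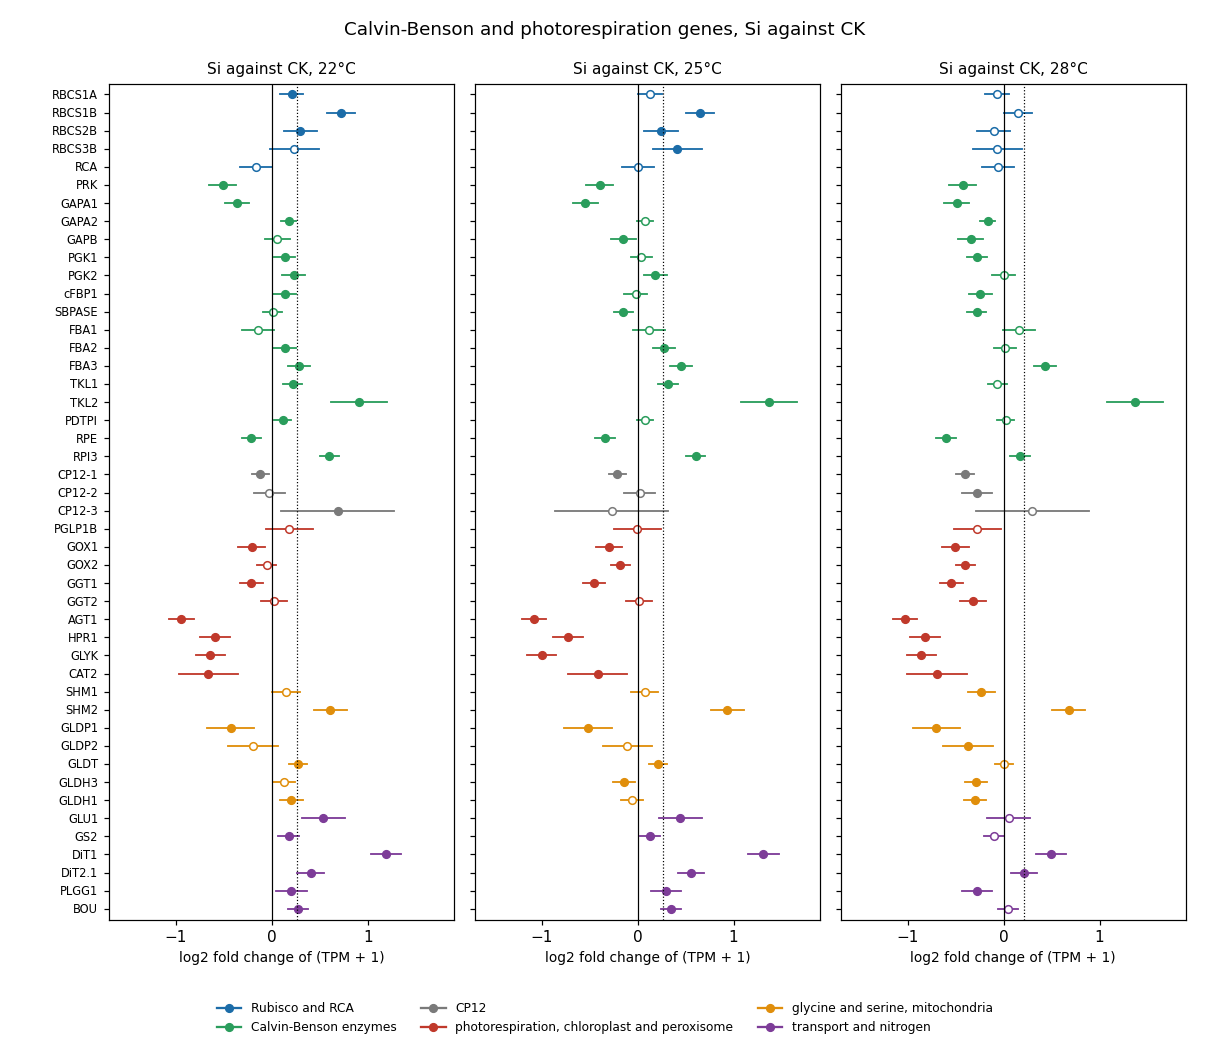
Log2 fold change of (TPM + 1) for Si against CK (x axis) for each of the 46 genes (y axis) at 22, 25, and 28°C, with 95% confidence intervals from limma (bars), filled points for an adjusted p of at most 0.05, and the median of all tested genes as a dotted line. AGT1, HPR1, GLYK, and CAT2 lie left of 0 and TKL2, SHM2, and DiT1 lie right of it in each panel, and most genes lie further left at 28°C than at 22°C.

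The largest falls were in photorespiratory enzymes of the peroxisome and chloroplast. AGT1 (AT2G13360), the serine:glyoxylate aminotransferase that makes hydroxypyruvate, was at 4062, 4312 and 4529 TPM in CK against 2238, 2289 and 2175 TPM in Si at 22°C. At 25°C its values were 4188, 4216 and 3721 TPM in CK against 1890.2, 1930.1 and 1898 TPM in Si. At 28°C they were 3327, 2969 and 2898 TPM in CK against 1474, 1495.1 and 1529 TPM in Si. All 9 Si samples were below all 9 CK samples, whatever the temperature. AGT1 fell 1.92-fold at 22°C (log2 fold change -0.94 ± 0.06 SE, limma adjusted p = 1.82e-08), 2.12-fold at 25°C (log2 fold change -1.08 ± 0.06 SE, limma adjusted p = 2.12e-09), and 2.04-fold at 28°C (log2 fold change -1.03 ± 0.06 SE, limma adjusted p = 7.17e-09), and was a DEG at 25 and 28°C. Under quantile normalization the falls were smaller, at -0.53, -0.68, and -0.63.

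HPR1 (AT1G68010), the peroxisomal hydroxypyruvate reductase that works next in the pathway, showed 1310.3, 1345 and 1464 TPM in CK against 921, 968 and 838 TPM in Si at 22°C. At 25°C the samples read 1337, 1431 and 1267 TPM in CK against 834, 804 and 795 TPM in Si. At 28°C they read 1281, 1086 and 1046 TPM in CK against 628, 657 and 644 TPM in Si. Here too all 9 Si samples were below all 9 CK samples, and CK replicate 1 at 28°C was the highest of its group. HPR1 fell at 22°C (log2 fold change -0.60, limma adjusted p = 8.31e-06), 25°C (-0.73, adjusted p = 7.62e-07), and 28°C (-0.82, adjusted p = 4.33e-07).

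GLYK (AT1G80380), the chloroplast glycerate kinase that closes the pathway by making 3-phosphoglycerate, read 469, 516 and 579 TPM in CK against 306, 356 and 337 TPM in Si at 22°C. At 25°C it read 511, 528 and 504 TPM in CK against 271, 248 and 252 TPM in Si. At 28°C the samples read 389.7, 348 and 374 TPM in CK against 207, 198 and 205 TPM in Si. Within each temperature the groups did not overlap, although the highest Si sample at 22°C was above the lowest CK sample at 28°C. GLYK fell at 22°C (log2 fold change -0.64, limma adjusted p = 2.68e-06), 25°C (-0.9997, adjusted p = 2.03e-08, just short of the DEG limit), and 28°C (-0.86, adjusted p = 1.75e-07).

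CAT2 (AT4G35090), the leaf catalase that removes the hydrogen peroxide made by glycolate oxidase, had wider replicate scatter. It was at 337, 335 and 319 TPM in CK against 189, 259 and 183 TPM in Si at 22°C. The values at 25°C were 314, 343 and 264 TPM in CK against 214, 256 and 218 TPM in Si. The values at 28°C were 384, 286 and 257 TPM in CK against 179.6, 192 and 192 TPM in Si. Groups of the same temperature did not overlap, but at 25°C the highest Si sample (256.1 TPM) came close to the lowest CK sample (264.1 TPM). CAT2 fell at 22°C (log2 fold change -0.67, limma adjusted p = 0.00111), 25°C (-0.42, adjusted p = 0.0208), and 28°C (-0.69, adjusted p = 0.000856). The sister catalase CAT3 (AT1G20620) had log2 fold changes of -0.33, -0.09, and 0.21, with 0.06 after quantile normalization at 22°C and -0.04 after median-of-ratios scaling at 28°C.

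**Figure D3:**
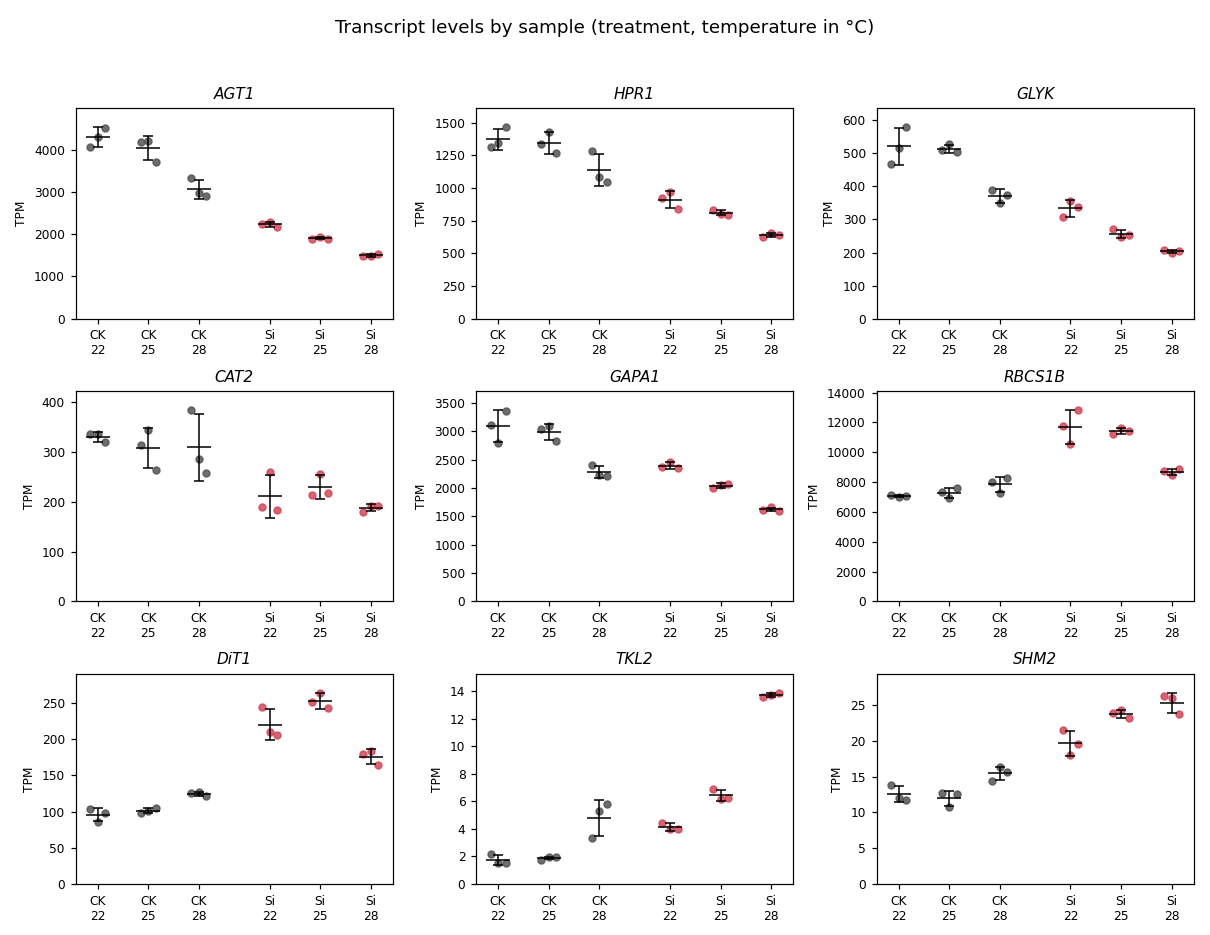
TPM (y axis, linear from 0) of 9 genes in each of the 18 samples (points), with the mean and SD of the 3 samples of a group (bars), by treatment and temperature on the x axis. AGT1, HPR1, GLYK, CAT2, and GAPA1 are lower in Si and RBCS1B, DiT1, TKL2, and SHM2 higher at each temperature, where RBCS1B at 28°C did not pass the test.

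The other 5 genes of this role changed less. Glycolate oxidase makes glyoxylate and hydrogen peroxide, and GOX1 (AT3G14420) had means of 2035, 2138, and 2198 TPM in CK against 1763, 1734, and 1547 TPM in Si at 22, 25, and 28°C. It fell at each temperature on the TPM scale (log2 fold changes -0.21, -0.30, and -0.50), but was at 0.05, 0.08, and -0.05 after quantile normalization and did not pass. GOX2 (AT3G14415) fell at 25 and 28°C, at -0.18 and -0.40, with the opposite sign at 25°C after quantile normalization (0.07). Because the 2 genes are so alike, their sum was tested too, on the TPM scale alone. It fell at 22°C (log2 fold change -0.15 ± 0.06 SE, limma adjusted p = 0.0423), 25°C (-0.26 ± 0.06 SE, adjusted p = 0.00145), and 28°C (-0.47 ± 0.06 SE, adjusted p = 1.00e-05). GGT1 (AT1G23310), the main glutamate:glyoxylate aminotransferase of leaves, which makes glycine, fell at the 3 temperatures on the TPM scale (-0.21, -0.46, and -0.55), with 0.05, -0.09, and -0.11 after quantile normalization, which did not pass. Its minor paralog GGT2 (AT1G70580), with a mean of 62.4 TPM in CK against 63.6 TPM in Si at 22°C, fell only at 28°C, at -0.32. The phosphoglycolate phosphatase gene PGLP1B (AT5G36790), the entry step, did not pass the test on the TPM scale at any temperature (0.18, -0.01, and -0.27). Its sum with PGLP1A, tested on the TPM scale alone, rose at 22°C (log2 fold change 0.28 ± 0.05 SE, limma adjusted p = 0.000455) and 25°C (0.17 ± 0.05 SE, adjusted p = 0.0112). At 28°C that sum did not pass (-0.09). In all, 6, 7, and 8 of the 9 genes of this role fell at 22, 25, and 28°C on the TPM scale and none rose, where 10.7, 13.5, and 11.9% of all genes fell. After median-of-ratios scaling 8, 9, and 9 fell and none rose, and after quantile normalization 4, 4, and 7 fell and GOX2 rose at 22°C (0.20). On the TPM scale their median log2 fold changes were -0.21, -0.42, and -0.55.

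In the mitochondrion, glycine decarboxylase, built from P, H, T, and L proteins, works with serine hydroxymethyltransferase. SHM2 (AT5G26780), the minor of the 2 genes for the latter, read 13.8, 12.0 and 11.8 TPM in CK against 21.5, 17.97 and 19.5 TPM in Si at 22°C. At 25°C it read 12.7, 10.8 and 12.5 TPM in CK against 23.8, 24.2 and 23.2 TPM in Si. The 28°C samples read 14.4, 16.3 and 15.6 TPM in CK against 26.3, 26.0 and 23.7 TPM in Si. All 9 Si samples were above all 9 CK samples, and the share of SHM2 in the summed TPM of both genes went from 0.694 ± 0.0731% in CK at 22°C to 1.64 ± 0.0950% in Si at 28°C (mean ± SD, n = 3). SHM2 rose by 0.61 (limma adjusted p = 1.65e-05), 0.93 (adjusted p = 1.57e-07), and 0.68 (adjusted p = 6.86e-06) in log2 units at 22, 25, and 28°C. SHM1 (AT4G37930), the main photorespiratory form, had 1798 ± 133 TPM in CK against 1989.7 ± 125 TPM in Si at 22°C (mean ± SD, n = 3). On the TPM scale it did not pass the test there or at 25°C. At 22°C it rose after quantile normalization (0.48, limma adjusted p = 1.81e-06), while median-of-ratios scaling gave -0.15. At 28°C it fell on the TPM scale (-0.23), while its quantile-normalized value was 0.19.

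The subunits of glycine decarboxylase were not moved alike. GLDP1 (AT4G33010), the main P protein gene, was at 2523, 2032 and 2360.4 TPM in CK against 1809.9, 1774 and 1541 TPM in Si at 22°C. At 28°C it was at 2436, 1897 and 1769.8 TPM in CK against 1254, 1259 and 1206 TPM in Si. The CK samples spread widely, with CK replicate 1 highest at both temperatures, but stayed above all Si samples of the same temperature. GLDP1 fell at 22°C (log2 fold change -0.43, limma adjusted p = 0.00509), 25°C (-0.52, adjusted p = 0.00116), and 28°C (-0.70, adjusted p = 0.000126), though under quantile normalization -0.13 and -0.17 at 22 and 25°C did not pass. The second P protein gene, GLDP2 (AT2G26080), fell at 28°C only, at -0.37. GLDT (AT1G11860), the T protein gene, rose by 0.27 and 0.21 at 22 and 25°C on the TPM scale but was at -0.03 and -0.08 after median-of-ratios scaling. The H protein genes GLDH1 (AT2G35370) and GLDH3 (AT1G32470) had log2 fold changes of 0.20 and 0.13 at 22°C and fell at 28°C on the TPM scale (-0.30 and -0.29), where quantile normalization gave -0.09 and -0.11. At 22°C median-of-ratios scaling turned both signs, to -0.10 and -0.17. Over the 7 genes of this role, 3 rose and 1 fell at 22°C, 2 rose and 2 fell at 25°C, and 1 rose and 5 fell at 28°C on the TPM scale, where 47.4, 47.8, and 43.5% of all genes rose. The balance turned with the scaling, with 1 higher and 3 lower, 1 and 5, and 1 and 6 after median-of-ratios scaling, and 5 and 0, 5 and 0, and 2 and 2 after quantile normalization.

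Among the Calvin-Benson enzymes, PRK, GAPA1, and RPE were the genes that fell at all 3 temperatures on the TPM scale. PRK (AT1G32060), phosphoribulokinase, read 1738, 1842 and 1948 TPM in CK against 1269, 1349 and 1251 TPM in Si at 22°C. At 25°C the values were 1644, 1704 and 1487 TPM in CK against 1219.9, 1240.2 and 1209 TPM in Si, and at 28°C they were 1439.7, 1261 and 1234 TPM in CK against 1005, 979.9 and 935 TPM in Si. Si and CK samples of 1 temperature did not overlap. PRK fell at 22°C (log2 fold change -0.51, limma adjusted p = 1.03e-05), 25°C (-0.40, adjusted p = 8.80e-05), and 28°C (-0.43, adjusted p = 6.11e-05), although the quantile-normalized value of -0.10 at 25°C did not pass.

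Chloroplast glyceraldehyde 3-phosphate dehydrogenase, the reducing step, is built from A and B subunits. GAPA1 (AT3G26650), the main A subunit gene, was at 3041, 3099.7 and 2827 TPM in CK against 1998, 2057 and 2075 TPM in Si at 25°C, with no overlap. It fell at 22, 25, and 28°C on the TPM scale (log2 fold changes -0.36, -0.55, and -0.49), but after quantile normalization it was at 0.06, -0.13, and -0.03 and did not pass. Its paralog GAPA2 (AT1G12900) went from 769 to 867 TPM at 22°C, a rise of 0.17 that became -0.13 after median-of-ratios scaling. As a share of the TPM of GAPA1 and GAPA2 together, which a common factor per sample does not change, GAPA1 made up 80.02 ± 1.07% in CK and 73.4 ± 0.336% in Si at 22°C, 80.1 ± 0.964% and 72.3 ± 1.14% at 25°C, and 75.5 ± 0.924% and 71.1 ± 0.221% at 28°C (mean ± SD, n = 3). GAPB (AT1G42970), the B subunit gene, fell at 25 and 28°C on the TPM scale, at -0.15 and -0.34, with 0.22 and 0.02 after quantile normalization. The phosphoglycerate kinase genes PGK1 (AT3G12780) and PGK2 (AT1G56190) rose slightly at 22°C, by 0.13 and 0.23, and turned to -0.17 and -0.07 after median-of-ratios scaling. At 28°C PGK1 fell on the TPM scale (-0.28), a call lost after quantile normalization (-0.03).

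The genes of the regeneration phase went in both directions. TKL2 (AT2G45290), the minor transketolase gene, read 2.18, 1.53 and 1.55 TPM in CK against 4.44, 3.97 and 3.99 TPM in Si at 22°C. At 25°C it read 1.77, 1.94 and 1.94 TPM in CK against 6.90, 6.16 and 6.27 TPM in Si. At 28°C the samples read 3.31, 5.29 and 5.80 TPM in CK against 13.6, 13.7 and 13.9 TPM in Si. Si and CK did not overlap at any temperature, and the Si samples at 28°C were the highest of all 18. TKL2 rose by 0.91 (limma adjusted p = 5.30e-05), 1.37 (adjusted p = 6.70e-07), and 1.37 (adjusted p = 1.15e-06) and was a DEG at 25 and 28°C. At these levels the added 1 TPM holds the log2 values down. The main gene TKL1 (AT3G60750) was at 1055 TPM in CK against 1225 TPM in Si at 22°C, so TKL2 was a small part of the pair: its share of the summed TPM of both was 0.166 ± 0.0336% in CK at 22°C and 1.53 ± 0.0793% in Si at 28°C. TKL1 rose by 0.22 and 0.32 at 22 and 25°C, but was at -0.08 and 0.02 after median-of-ratios scaling and did not pass.

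RPI3 (AT3G04790), the plastid ribose 5-phosphate isomerase, read 324, 336 and 318 TPM in CK against 509, 498 and 478 TPM in Si at 22°C. At 25°C it read 311, 314 and 333 TPM in CK against 505, 489 and 464 TPM in Si. The 28°C samples read 336, 325 and 320.1 TPM in CK against 388, 366 and 351 TPM in Si. The Si samples were above the CK samples at each temperature. RPI3 rose by 0.60 (limma adjusted p = 1.19e-07) and 0.60 (adjusted p = 5.50e-08) at 22 and 25°C under all 3 scalings, whereas at 28°C the rise of 0.17 turned to -0.08 after median-of-ratios scaling. RPE (AT5G61410), the epimerase that acts on the same pentose phosphates, fell at the 3 temperatures (-0.21, -0.34, and -0.60), and the fall at 28°C, from 1042, 924 and 934 TPM in CK to 658, 630.0 and 618 TPM in Si, held under all 3 scalings, while at 22 and 25°C the quantile-normalized values of -0.01 and -0.08 did not pass.

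Of the 3 plastid aldolase genes, FBA3 (AT2G01140), the least abundant, rose by 0.29 at 22°C, where median-of-ratios scaling gave -0.01, and by 0.45 and 0.43 at 25 and 28°C under all 3 scalings. At 28°C its values were 82.0, 93.3 and 92.7 TPM in CK against 124, 120.3 and 117 TPM in Si. FBA2 (AT4G38970), the most abundant, rose by 0.13 and 0.27 at 22 and 25°C on the TPM scale, which became -0.17 and -0.03 after median-of-ratios scaling. FBA1 (AT2G21330) did not pass on the TPM scale at any temperature. At 22°C it fell after median-of-ratios scaling (-0.45, limma adjusted p = 0.000718), while the quantile-normalized value of -0.10 did not pass. The bisphosphatases are light-activated steps of the cycle. The fructose-1,6-bisphosphatase gene cFBP1 (AT3G54050) and the sedoheptulose-1,7-bisphosphatase gene SBPASE (AT3G55800) had log2 fold changes of 0.14 and 0.01 at 22°C, with the opposite sign after median-of-ratios scaling, and fell at 28°C under all 3 scalings (-0.24 and -0.28). PDTPI (AT2G21170), the plastid triose phosphate isomerase, rose by 0.11 at 22°C, with -0.19 after median-of-ratios scaling, and did not pass at 25 or 28°C. In all, 10 of the 16 genes rose and 3 fell at 22°C, 6 rose and 5 fell at 25°C, and 3 rose and 8 fell at 28°C on the TPM scale, against 47.4, 47.8, and 43.5% of all genes higher and 10.7, 13.5, and 11.9% lower. After median-of-ratios scaling the counts were 2 higher and 9 lower, 3 and 9, and 2 and 12, and after quantile normalization 10 and 1, 8 and 0, and 6 and 4.

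CP12 proteins tie glyceraldehyde 3-phosphate dehydrogenase and phosphoribulokinase into an inactive complex in the dark. CP12-1 (AT2G47400) fell at 22, 25, and 28°C on the TPM scale (log2 fold changes -0.12, -0.21, and -0.40), but was at 0.15, 0.13, and 0.04 after quantile normalization. CP12-2 (AT3G62410) fell at 28°C only, at -0.28 on the TPM scale against 0.25 after quantile normalization. CP12-3 (AT1G76560), at far lower levels than the others, read 17.1, 20.1 and 17.9 TPM in CK against 21.8, 35.2 and 35.4 TPM in Si at 22°C and passed narrowly there (log2 fold change 0.68 ± 0.28 SE, limma adjusted p = 0.0443), a call lost after median-of-ratios scaling (0.40) and quantile normalization (0.41). At 25°C its Si samples ranged from 10.4 to 24.95 TPM and overlapped CK, and neither there nor at 28°C did it pass.

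Of the 5 genes of Rubisco, 3 rose at 22°C, 3 at 25°C, and none at 28°C on the TPM scale, where 47.4, 47.8, and 43.5% of all genes rose. None of the 5 fell on that scale. After median-of-ratios scaling RBCS1B alone rose at 22 and 25°C, while 1, 1, and 3 of the 5 fell at 22, 25, and 28°C. After quantile normalization 4, 3, and 0 rose and none fell. RBCS1B (AT5G38430) read 7138, 7022 and 7069 TPM in CK against 11727, 10559 and 12819 TPM in Si at 22°C. At 25°C it read 7311, 6947 and 7584 TPM in CK against 11238, 11604 and 11392 TPM in Si. At 28°C the samples read 7985, 7259.6 and 8276 TPM in CK against 8746, 8468 and 8855 TPM in Si. The groups were apart at all 3 temperatures, by a wide margin at 22 and 25°C. RBCS1B rose 1.65-fold at 22°C (log2 fold change 0.72 ± 0.07 SE, limma adjusted p = 5.27e-07) and 1.57-fold at 25°C (log2 fold change 0.65 ± 0.07 SE, limma adjusted p = 9.11e-07) under all 3 scalings, and was at 0.15 at 28°C with -0.10 after median-of-ratios scaling.

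RBCS1A (AT1G67090), the most abundant transcript of the set, had means of 16111 ± 842, 15113 ± 327, and 13982 ± 395 TPM in CK against 18575 ± 903, 16537 ± 450.5, and 13336 ± 528 TPM in Si. It rose by 0.21 at 22°C on the TPM scale, with -0.09 after median-of-ratios scaling, and did not pass at 25 or 28°C (0.13 and -0.07). RBCS2B (AT5G38420), whose upstream window holds the G-box and I-boxes shown above, rose by 0.30 and 0.24 at 22 and 25°C, with -0.0019 and -0.05 after median-of-ratios scaling. RBCS3B (AT5G38410) rose at 25°C alone, by 0.41, a call lost after median-of-ratios scaling (0.12), and 1 of its Si samples at 22°C (replicate 3, 6238 TPM) was below the CK samples. RCA (AT2G39730), the activase that frees Rubisco of inhibitory sugar phosphates, did not pass on the TPM scale at any temperature (-0.17, 0.01, and -0.06). At 22°C it fell after median-of-ratios scaling (-0.47, limma adjusted p = 0.000819), where quantile normalization gave 0.10. The sum of the 3 chromosome 5 genes rose at 22°C (log2 fold change 0.43 ± 0.07 SE, limma adjusted p = 6.18e-05) and at 25°C (log2 fold change 0.43 ± 0.07 SE, limma adjusted p = 4.89e-05) and was at -0.0049 at 28°C. This sum still depends on how reads were split, since TPM divides by length. The deposited lengths are 840 (RBCS1B), 935 (RBCS2B), and 1184 bases (RBCS3B).

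The make-up of the small-subunit pool was compared as a share of TPM, which a common factor per sample does not change, though quantile normalization could. RBCS1A made up 39.5, 41.9 and 40.9% of the 4 genes in CK against 35.9, 36.2 and 39.1% in Si at 22°C. At 25°C the shares were 38.9, 38.7 and 39.5% in CK against 33.5, 34.6 and 34.7% in Si. At 28°C they were 35.1, 37.4 and 38.4% in CK against 36.0, 35.5 and 36.2% in Si. Si and CK were apart at 22°C, though narrowly (39.1% in Si next to 39.5% in CK), and at 25°C, and overlapped at 28°C. Averaged over the temperatures, the share was 3.16 percentage points lower in Si (exact two-sided permutation test within temperatures, 8000 arrangements, p = 0.00175, adjusted over 2 tests 0.0035, where 0.00025 is the smallest p possible). As an average over the treatments, it was 2.47 points lower at 28°C than at 22°C (exact two-sided permutation test within treatments, 400 arrangements, p = 0.02, adjusted 0.02, smallest possible 0.005). In CK the mean share went from 40.7 ± 1.19% to 37.0 ± 1.66%, without overlap. In Si it went from 37.1 ± 1.76% to 35.9 ± 0.340%, and the samples overlapped. The call for 28 against 22°C was lost when samples were paired by replicate number, a pairing that the labels do not give. RBCS1B took 17.9 ± 0.569% in CK and 23.4 ± 2.21% in Si at 22°C and 20.7 ± 1.16% and 23.4 ± 1.22% at 28°C (mean ± SD, n = 3).

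**Figure D4:**
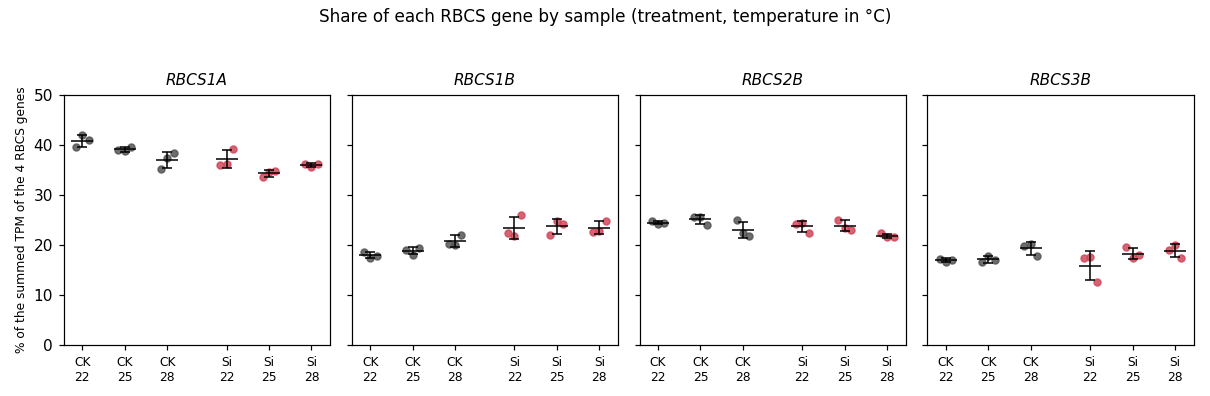
Share of each of the 4 RBCS genes in their summed TPM (y axis, %) in each of the 18 samples (points), with the mean and SD of the 3 samples of a group (bars), by treatment and temperature on the x axis. The RBCS1A share is highest in CK at 22°C and lowest in Si at 25°C, and the RBCS1B share is higher in Si than in CK at each temperature, with no overlap.

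All 6 genes of transport and nitrogen rose in Si at 22 and at 25°C on the TPM scale, and at 28°C 2 rose and 1 fell. Of all tested genes, 47.4, 47.8, and 43.5% rose and 10.7, 13.5, and 11.9% fell at 22, 25, and 28°C. After median-of-ratios scaling 1 rose at 22°C, 2 rose and 1 fell at 25°C, and 1 rose and 3 fell at 28°C. Under quantile normalization 5 rose at 22°C and 6 at 25°C, and at 28°C 2 rose and 1 fell. DiT1 (AT5G12860), which carries 2-oxoglutarate into the chloroplast in exchange for malate, read 103, 86.0 and 98.4 TPM in CK against 245, 209 and 206 TPM in Si at 22°C. At 25°C it read 98.2, 100.1 and 105 TPM in CK against 252, 264 and 243 TPM in Si. The 28°C samples read 126, 127 and 121 TPM in CK against 179, 184 and 164 TPM in Si. All 9 Si samples were above all 9 CK samples, and within Si the samples at 28°C were the lowest. DiT1 rose 2.28-fold at 22°C (log2 fold change 1.19 ± 0.07 SE, limma adjusted p = 1.39e-08) and 2.48-fold at 25°C (log2 fold change 1.31 ± 0.07 SE, limma adjusted p = 2.10e-09), where it was a DEG both times, and 1.41-fold at 28°C (log2 fold change 0.49 ± 0.07 SE, limma adjusted p = 5.04e-05).

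DiT2.1 (AT5G64290), which brings glutamate back out of the chloroplast, rose by 0.40 and 0.56 at 22 and 25°C with the same sign under every scaling, although at 22°C the median-of-ratios value of 0.11 did not pass. At 28°C it rose by 0.21, where median-of-ratios scaling gave -0.03. GLU1 (AT5G04140), the ferredoxin-dependent glutamate synthase, was at 470.1, 333 and 449 TPM in CK against 635, 610.0 and 556 TPM in Si at 22°C. The groups did not overlap, with CK replicate 2 well below the other CK samples, and GLU1 rose by 0.54 (limma adjusted p = 0.000488) and by 0.45 at 25°C (adjusted p = 0.00184), calls that median-of-ratios scaling lost (0.24 and 0.15). GS2 (AT5G35630), the plastid glutamine synthetase that captures the ammonium, rose by 0.17 and 0.13 with -0.13 and -0.17 after median-of-ratios scaling. PLGG1 (AT1G32080), which exports glycolate and imports glycerate, rose by 0.20 and 0.29 at 22 and 25°C, with -0.10 and -0.0018 after median-of-ratios scaling, and fell at 28°C under all 3 scalings (-0.28). BOU (AT5G46800), a mitochondrial carrier needed for glycine decarboxylase activity, rose by 0.28 and 0.35 at 22 and 25°C, with -0.02 and 0.06 after median-of-ratios scaling, neither of which passed, and was at 0.05 at 28°C.

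Whether the response to the fungus changed with temperature was tested by interaction, the Si effect at 25 or 28°C minus that at 22°C. For 28°C, 25 of the 46 genes had a lower Si effect than at 22°C and none a higher one, where 10.2% of all genes were lower and 6.92% higher, and the median of the 46 was -0.28 against -0.03 over all genes. After median-of-ratios scaling, 14 were lower and none higher (8.43% and 8.10% of all genes), after quantile normalization 20 were lower and 2 higher (9.33% and 8.42%), and 12 were lower under all 3 scalings: GAPA2, GAPB, PGK1, cFBP1, RPE, RPI3, GOX2, SHM1, GLDH1, GLDH3, DiT1, and PLGG1. The largest interaction was that of DiT1 (log2 fold change -0.70 ± 0.10 SE, limma adjusted p = 0.000593), followed by RBCS1B (log2 fold change -0.57 ± 0.10 SE, limma adjusted p = 0.00123) and GLDH1 (log2 fold change -0.50 ± 0.08 SE, limma adjusted p = 0.000792). For RBCS1B the quantile-normalized value was -0.39 and did not pass. The genes with the largest falls in Si had interactions that did not pass: AGT1 was at -0.08 (95% confidence interval -0.27 to 0.10), HPR1 at -0.22 (-0.44 to 0.0027), GLYK at -0.22 (-0.43 to -0.0044), and CAT2 at -0.03 (-0.47 to 0.41). By role, 3 of 5 genes of Rubisco, 8 of 16 Calvin-Benson enzymes, 1 of 3 CP12 genes, 4 of 9 photorespiratory enzymes, 4 of 7 mitochondrial genes, and 5 of 6 transport and nitrogen genes were lower, and after median-of-ratios scaling 1, 6, 1, 1, 3, and 2 of them. For 25°C, 3 of 46 were lower (GLYK at -0.36, GLDH3 at -0.27, and GLDH1 at -0.27) and none higher, against 5.36% and 4.37% of all genes, so the members' share was near that of all genes. After median-of-ratios scaling none of the 3 passed and 0 of the 46 were lower or higher (5.59% and 4.21% of all genes), and with single samples left out the count ranged from 0 to 4. Both interactions share the 22°C samples and are not independent.

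The same 28°C samples can be read within each treatment. In CK shoots, 9 of the 46 genes rose and 12 fell from 22 to 28°C, with a median of -0.03 and 1 DEG, against 41.2% of all genes higher, 7.81% lower, and 4.89% DEGs. After median-of-ratios scaling, 2 rose and 29 fell, where 18.5% and 21.9% of all genes did, while after quantile normalization 15 rose and 9 fell, against 16.8% and 17.4%. In Si shoots, 5 rose and 36 fell, with a median of -0.39 and 1 DEG, against 39.0% higher, 10.5% lower, and 6.64% DEGs, and after median-of-ratios scaling 3 rose and 38 fell, against 18.4% and 20.6%. After quantile normalization 8 rose and 27 fell in Si, against 20.0% and 20.6%. Under all 3 scalings, 2 genes rose and 8 fell in CK, and 3 rose and 27 fell in Si, again with no such count over all genes. These comparisons share samples with those of Si against CK.

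**Figure D5:**
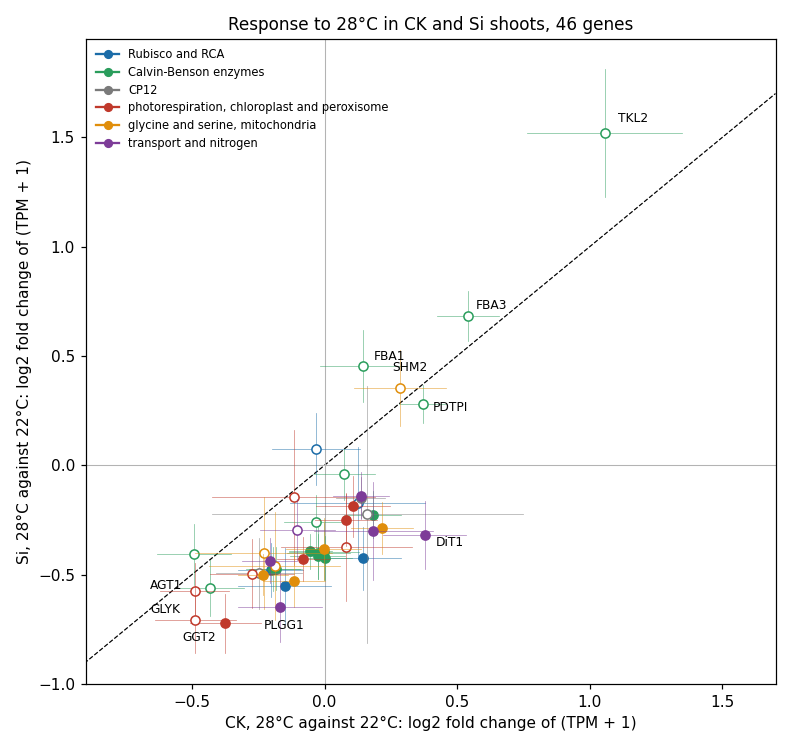
Log2 fold change of (TPM + 1) from 22 to 28°C in CK (x axis) and in Si (y axis) for each of the 46 genes (points, with 95% confidence intervals from limma), colored by role, with a dashed line of equal change and filled points where the interaction passed (adjusted p at most 0.05). Most points lie below the line of equal change, with DiT1 and RBCS1B furthest below it, and TKL2 and FBA3 at the upper right.

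TKL2 rose from 2.18, 1.53 and 1.55 TPM at 22°C to 3.31, 5.29 and 5.80 TPM at 28°C in CK, and from 4.44, 3.97 and 3.99 TPM to 13.6, 13.7 and 13.9 TPM in Si. It was the DEG of both comparisons (log2 fold change 1.06 for CK, limma adjusted p = 2.56e-05, and 1.52 for Si, adjusted p = 9.19e-07), with no overlap between temperatures, though the call as a DEG in CK rests on the scaling. FBA3 rose in CK by 0.54 (adjusted p = 2.51e-06) and in Si by 0.68 (adjusted p = 2.59e-07). In CK the third largest rise was that of DiT1, by 0.38 (adjusted p = 0.000703), where Si shoots showed a fall (-0.32, adjusted p = 0.00239), both signs holding under all 3 scalings. The fall in Si passed under each scaling, whereas the rise in CK did not pass after median-of-ratios scaling. FBA1 rose in Si, by 0.45 (adjusted p = 0.000240). The largest falls in CK were those of PRK (-0.49, adjusted p = 3.00e-05), AGT1 (-0.49, adjusted p = 1.70e-05), and GLYK (-0.49, adjusted p = 6.68e-05). Those in Si were GGT2 (-0.72, adjusted p = 6.63e-07), GLYK (-0.71, adjusted p = 2.48e-06), and PLGG1 (-0.65, adjusted p = 8.04e-06).

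Between 22 and 25°C little moved. In CK, 3 of the 46 genes rose and 1 fell (8.74% and 2.40% of all genes), and after median-of-ratios scaling none rose and 5 fell (4.22% and 5.68%). In Si, 5 rose and 10 fell (16.6% and 7.06%), and after median-of-ratios scaling 2 rose and 16 fell (8.36% and 11.3%). Quantile normalization turned the balance in Si, where 7 rose and 4 fell, against 2313 and 1949 of all 20044 genes. Under all 3 scalings, 2 rose and 4 fell in Si. On the TPM scale the largest changes in Si were the rise of TKL2 by 0.54 (limma adjusted p = 0.0121) and the fall of GLYK (-0.37, adjusted p = 0.00216).

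A further 18 genes of these pathways that are not among the 46, mostly minor paralogs and branch enzymes, were listed for comparison. Of these, 4 rose and 6 fell in Si at 22°C, 7 rose and 4 fell at 25°C, and 7 rose and 5 fell at 28°C on the TPM scale, against 47.4, 47.8, and 43.5% of all genes higher and 10.7, 13.5, and 11.9% lower. The balance turned at 25 and 28°C after median-of-ratios scaling, with 3 higher and 11 lower, 3 and 8, and 5 and 8. GLU2 (AT2G41220), the second ferredoxin-dependent glutamate synthase gene, rose by 0.996, 1.21, and 1.16 under all 3 scalings, from 7.69 ± 0.420 to 19.1 ± 0.946 TPM at 25°C. GLDH2 (AT2G35120), the third H protein gene, fell at 22°C (-0.31) and rose at 28°C (0.98), an interaction of 1.30 (limma adjusted p = 0.000237) against the -0.50 and -0.41 of GLDH1 and GLDH3. At 28°C the samples read 16.6, 18.1 and 21.8 TPM in CK against 38.5, 38.6 and 37.0 TPM in Si, without overlap. GOX3 (AT4G18360), a glycolate oxidase gene at far lower levels than GOX1 and GOX2, read 1.24, 1.85 and 1 TPM in CK against 8.08, 4.57 and 6.66 TPM in Si at 28°C and rose there by 1.64 (adjusted p = 1.24e-05). CAT3 had an interaction of 0.54 (adjusted p = 0.00443), and HPR3 (AT1G12550), a minor hydroxypyruvate reductase gene, was higher in Si by 0.64, 0.80, and 0.88, while HPR1 was lower, though at 22 and 25°C the HPR3 calls were lost after quantile normalization (0.21 and 0.35). TPT (AT5G46110), the triose phosphate exporter of the chloroplast envelope, fell under all 3 scalings (-0.42, -0.41, and -0.35).

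Of 10 genes for the folding, assembly, and modification of Rubisco, 7 rose and 1 fell at 22°C, 6 rose and 1 fell at 25°C, and 3 rose and 5 fell at 28°C on the TPM scale. Of all genes, 47.4, 47.8, and 43.5% were higher and 10.7, 13.5, and 11.9% lower. After median-of-ratios scaling the counts were 3 higher and 2 lower, 3 and 5, and 1 and 7, and after quantile normalization 6 and 1, 6 and 1, and 3 and 6. The chaperonin subunit genes CPN60A1 (AT2G28000), CPN60B1 (AT1G55490), and CPN20 (AT5G20720) rose at 22°C by 0.85, 0.74, and 0.53 and at 25°C by 1.002, 0.65, and 0.83 under all 3 scalings. RBCX1 (AT4G04330), an assembly chaperone gene, fell at the 3 temperatures (-0.48, -0.50, and -0.66). In the 28°C interaction 8 of the 10 were lower and none higher, among them CPN60B1 (-0.52, limma adjusted p = 0.00167), with a median of -0.41. Of all genes, 10.2% were lower and 6.92% higher in that interaction. After median-of-ratios scaling, and likewise after quantile normalization, 7 of the 10 were lower and none higher.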

How the data were processed

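RNA-seq of the aboveground parts of 18 seedling samples was deposited as 1 table of TPM values. According to the sources, the authors trimmed the reads with SeqPrep and Sickle, mapped them to TAIR10, and computed TPM before they deposited the table. The labels name HISAT2 and StringTie and the methods name RSEM, so which tool made the deposited TPM is not settled. How reads that fit several genes were shared out is not given in the sources used here. Every sample sums to the same total TPM, which leaves the read depth unknown. The study's DESeq2 test needs counts, which were not used here.

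The 20044 of 33039 genes that reached 1 TPM in 3 or more samples were tested with limma 3.58.1 in R 4.3.3, with a trend, on log2(TPM + 1), using all 6 groups of 3 samples in 1 fit. P-values were adjusted by the Benjamini-Hochberg method over all tested genes in each of 9 comparisons. A DEG had an adjusted p no higher than 0.05 and changed by more than 1 in log2 units, except for interactions. The RBCS1A share was compared with exact permutation tests, exchanging samples within temperatures or within treatments. Tables and sequences were handled with Python 3.11.15, pandas 2.3.3, and Biopython 1.88, and plots were drawn with matplotlib 3.10.9. Sequences and positions come from RefSeq for TAIR10.1. The script was tested on simulated data.

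All 46 members may be named with their levels. By rule, tests are given for DEGs and for the 3 largest rises and falls among members in each comparison, other members whose changes are printed were chosen after their values were seen, and up to 3 genes per comparison were named from the lists of other pathway genes and of Rubisco assembly genes. Members and lists were chosen with earlier results of these data known. Alternatives were other pseudocounts (0.1 and 0.5), no filter, a filter at 5 TPM, median-of-ratios and quantile scaling, only the groups compared, a replicate block, each sample left out, and, chosen after seeing the data, near-identical copies summed.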

Additional observations from a re-analysis of the deposited data

Results flagged for a closer look

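The response to the fungus differed between temperatures, by the interaction test, for 3 of the 46 genes at 25°C (where 5.36% of all genes were lower and 4.37% higher) and 25 at 28°C (10.2% and 6.92%), each against 22°C. Each value is the log2 fold change of Si against CK at the warmer temperature minus that at 22°C, with an adjusted p from limma of at most 0.05 and 3 samples per group. At 25°C the genes were GLYK (-0.36), GLDH3 (-0.27), and GLDH1 (-0.27), and none of the 3 passed after median-of-ratios scaling or with only the groups compared.

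At 28°C the Rubisco genes with a lower Si effect were RBCS1A (-0.27), RBCS1B (-0.57), and RBCS2B (-0.40), and the value of RBCS1B depends on how reads were split between it and its near copies. Among the Calvin-Benson enzymes, the genes were GAPA2 (-0.34) and GAPB (-0.39) of the reducing step, the kinase gene PGK1 (-0.41), the bisphosphatase genes cFBP1 (-0.38) and SBPASE (-0.29), and TKL1 (-0.28), RPE (-0.39), and RPI3 (-0.43) of sugar phosphate interconversion, with CP12-1 (-0.28) beside them. The photorespiratory genes were the glycolate oxidases GOX1 (-0.29) and GOX2 (-0.35) and the aminotransferases GGT1 (-0.33) and GGT2 (-0.35). In the mitochondrial group they were SHM1 (-0.38), the T protein gene GLDT (-0.27), and the H protein genes GLDH3 (-0.41) and GLDH1 (-0.50). Of transport and ammonium assimilation, they were DiT1 (-0.70), PLGG1 (-0.48), BOU (-0.23), GLU1 (-0.48), and GS2 (-0.28). The signs of all 28°C values named here were the same after median-of-ratios scaling and quantile normalization, while 12 of the 25 calls held under both.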

How the results depend on the processing

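Among the values of single named genes, 16 no longer passed with only the groups compared in the fit, 11 after median-of-ratios scaling, and 13 after quantile normalization. After median-of-ratios scaling, the genes higher and lower in Si numbered 5 and 23 at 22°C (23 and 11 on the TPM scale) and 7 and 27 at 25°C (17 and 15), with 5 DEGs at 25°C and 4 at 28°C. The interactions had 0 lower genes for 25°C and 14 for 28°C, CK had 0 higher and 5 lower at 25°C and 2 higher, 29 lower, and 0 DEGs at 28°C, and Si had 2 higher and 16 lower at 25°C and 3 higher at 28°C. After quantile normalization, 5 genes were lower in Si at 22°C and 4 at 25°C, and at 28°C 11 were higher, 14 lower, and 1 was a DEG. The interactions then had 1 higher gene for 25°C and 2 for 28°C, CK had 15 higher genes, 9 lower, and 0 DEGs at 28°C, and Si had 4 lower genes at 25°C and 8 higher ones at 28°C. Pseudocounts of 0.1 and 0.5 each gave 2 DEGs at 22°C instead of 1. Without the filter, the 25°C interaction had 1 lower gene, and with only the groups compared in the fit it had 0, CK at 25°C had 0 higher and 0 lower, and Si at 25°C had 2 higher and 3 lower.

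When samples were left out singly, the genes higher and lower in Si ranged over 18 to 24 and 9 to 12 at 22°C, 15 to 17 and 11 to 15 at 25°C, and 5 to 7 and 23 to 25 at 28°C, with 1 to 2, 3 to 4, and 1 to 2 DEGs. At 22°C the 2 DEGs came without CK replicate 1 of 22°C, and at 28°C the single DEG came without CK replicate 1 of 28°C. The interaction for 28°C had 0 to 1 higher and 20 to 26 lower genes, and that for 25°C had 0 to 1 higher and 0 to 4 lower, with 0 left without CK replicate 1 of 22°C, among other samples. CK had 1 to 4 higher and 0 to 2 lower genes at 25°C, and 7 to 10 higher, 11 to 17 lower, and 0 to 1 DEGs at 28°C, where TKL2 was no DEG without CK replicate 2 of 22°C or CK replicate 2 or 3 of 28°C. Si had 2 to 6 higher and 6 to 12 lower at 25°C, and 5 higher, 32 to 37 lower, and 1 DEG at 28°C. The RBCS1A share was lower in Si by values from -3.49 to -2.92 percentage points and lower at 28°C by values from -2.82 to -1.96.

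The labels do not say that a replicate number marks a shared batch or day, and over 45 same-number pairs the correlation of deviations from the group means ran from -0.0667 to 0.182, with 8 over 0.1, so the numbers were not taken as pairing. As a hint from the data, for 15 of 18 samples the mean correlation with the samples of other groups was highest for their own number. The median correlation was 0.0547 for same numbers and -0.0194 for other numbers. With a replicate block, counts of calls moved by at most 1, and the RBCS1A share at 28 against 22°C stayed at -2.47 points with an exact paired permutation p of 0.0625 over 6 pairs, which is above 0.05. With near-identical copies summed, an alternative chosen after seeing the data, signs turned for PGLP1B in Si against CK at 25°C (0.17) and RBCS1B at 28°C (-0.0049). They also turned for RBCS3B in the 25°C interaction (-0.0013) and in CK at 25°C (0.011), for GOX2 in CK at 25 and 28°C (0.036 and 0.037), for RBCS2B in CK at 28°C (0.027), and in Si at 25°C for RBCS1B and RBCS2B (0.010 for both) and PGLP1B (0.041). The cause of these shifts was not tested. Read depth is not known from TPM, so the precision of the low genes TKL2 and SHM2 rests on 3 samples per group alone.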
